A study of Homo sapiens with 29 samples.

Results

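The aryl hydrocarbon receptor pathway was followed here through 6 genes: the receptor AHR, its DNA-binding partner ARNT, the repressors AHRR and TIPARP, and the target enzymes CYP1A1 and CYP1B1. The genes were taken by symbol, and all 6 of 6 were found among the 23710 symbols of the expression table. The table covers 27 messenger RNA libraries, 3 in each of 9 groups, from 2 established human cell lines of lung cancer, H460 and H2122. Both lines are KEAP1 mutants, and KEAP1 is the adaptor through which the transcription factor NRF2 is normally degraded. In the knockdown experiment H460 cells carried short hairpin RNAs (sh) against GFP, NRF2, NR0B1 or SNW1 for 72 h, and H2122 cells carried hairpins against GFP or NRF2 for 24 h. GFP hairpins are the controls, so all knockdown groups share the expression of a hairpin. In the compound experiment H460 cells received the solvent DMSO or 30 µM of BPK29 or BPK9, known here only by their code names, for 12 h. The series text states the aim as comparing expression after depletion of NR0B1 in one line and of NRF2 in both. The labels give neither the hairpin sequence, nor whether a group is 1 clone, nor how the 3 libraries of a group were made, so the replicate error in every test could be technical rather than biological.

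AHR is a ligand-activated transcription factor of the basic helix-loop-helix PAS family. Without ligand it waits in the cytoplasm in a complex with the chaperone HSP90 and the protein p23, and ligands such as dioxins, polycyclic hydrocarbons or tryptophan metabolites send it to the nucleus, where it pairs with ARNT and binds xenobiotic response elements. In lung epithelium it is best known for inducing CYP1A1 and CYP1B1, monooxygenases that oxidise polycyclic hydrocarbons of tobacco smoke. The pathway also induces its own brakes: AHRR competes with AHR for ARNT and DNA, and TIPARP, an ADP-ribosyltransferase, modifies AHR and lowers its activity.

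The core letters of a xenobiotic response element are GCGTG. They were searched on both strands of the 250 bases before the RefSeq start (build GRCh38.p14), which could be matched for 5 of the 6 genes (not for CYP1B1). The first windows of the feedback repressors and of CYP1A1 are shown because each holds the core, with the core in capitals (CACGC is the core read on the other strand).
CYP1A1: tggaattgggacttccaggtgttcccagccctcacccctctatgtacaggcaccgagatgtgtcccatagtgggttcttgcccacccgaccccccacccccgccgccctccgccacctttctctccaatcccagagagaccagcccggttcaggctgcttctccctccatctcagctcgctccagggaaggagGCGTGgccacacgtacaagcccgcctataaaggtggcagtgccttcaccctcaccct
AHRR: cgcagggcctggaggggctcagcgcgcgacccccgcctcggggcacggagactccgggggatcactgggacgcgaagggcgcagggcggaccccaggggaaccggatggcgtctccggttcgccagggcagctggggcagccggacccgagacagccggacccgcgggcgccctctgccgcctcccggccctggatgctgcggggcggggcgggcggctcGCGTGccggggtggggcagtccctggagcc
TIPARP: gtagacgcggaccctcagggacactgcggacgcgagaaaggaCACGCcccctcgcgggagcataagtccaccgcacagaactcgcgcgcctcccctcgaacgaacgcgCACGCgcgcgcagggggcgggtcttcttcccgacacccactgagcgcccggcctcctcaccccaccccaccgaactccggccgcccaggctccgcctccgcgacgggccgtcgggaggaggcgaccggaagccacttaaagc
The CYP1A1 window lies at chr15:74725529-74725778 on the minus strand and holds the core once, 57 bases before the start. The AHRR window lies at chr5:321464-321713 on the plus strand with 1 core, 30 bases before the start, which is also its match to the longer form TNGCGTG. TIPARP is on the plus strand, and its first window at chr3:156674340-156674589 holds 2 cores, 208 and 142 bases before the start. Its further windows, at chr3:156674676-156674925 and chr3:156676414-156676663, hold 0 cores. A second AHRR window, at chr5:322360-322609, holds 2 cores. No match was found in the windows of AHR (chr7:17298402-17298651, plus strand) and ARNT (chr1:150876600-150876849, minus strand). Of 35116 promoter windows of the same length, 32.2% held GCGTG and 4.52% held TNGCGTG, so a match is a common feature and a description only.

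Each knockdown library held 16709850 to 24613404 recovered reads, and each compound library 19077517 to 24824508. The targeted transcripts were lower under their own hairpins. NFE2L2, the gene of NRF2, went from 58.5 ± 1.01 to 26.6 ± 0.852 FPKM under shNRF2 in H2122 (SD, n = 3), and from 43.3 ± 1.54 to 26.8 ± 1.04 FPKM in H460. NR0B1 in H460 went from 47.6 ± 1.69 FPKM to 18.2 ± 0.924 under its own hairpin and to 9.06 ± 0.27 under shNRF2, so both hairpins lowered it. SNW1 went from 51.2 ± 1.65 to 32.2 ± 1.77 FPKM under shSNW1. The targeted transcripts also differed under other hairpins. In H460, NFE2L2 stood at 54.5 ± 1.54 FPKM under shNR0B1 and 57.3 ± 0.912 under shSNW1, and NR0B1 at 59.9 ± 0.945 under shSNW1. SNW1 stood at 44.4 ± 1.37 FPKM under H460 shNRF2 and 50.9 ± 1.49 under shNR0B1. In H2122, shNRF2 took NR0B1 from 18.7 ± 1.17 to 0.966 ± 0.0395 FPKM and SNW1 from 47.9 ± 0.458 to 51.8 ± 1.47. All 6 epithelial markers (EPCAM, CDH1 and keratins) had reads in every knockdown group, while the alveolar marker SFTPA1 and the T cell marker CD3E were at 0 in every group, and the 5 alveolar markers, with NKX2-1 at 0 in both control groups, summed to at most 0.593 FPKM. In H460, 5 of the 6 epithelial markers reached 1 FPKM in at least 3 libraries. The epithelial sum in H460 ran from 1978 to 2256 FPKM in shGFP and from 1203 to 1229 in shNR0B1. It ran from 2060 to 2173 in shNRF2 and from 1888 to 1947 in shSNW1. In H2122 the sum ran from 4425 to 4485 in shGFP and from 6505 to 6795 in shNRF2. The 5 fibroblast and endothelial markers summed to 7.17 to 7.89 FPKM in H460 shGFP, 15.4 to 16.6 in shNR0B1, 13.9 to 14.9 in shNRF2 and 5.98 to 6.39 in shSNW1, and in H2122 to 9.42 to 10.4 in shGFP and 13.9 to 14.5 in shNRF2. The 5 immune markers summed to 1.22 to 1.39 FPKM in H2122 shGFP and 10.1 to 10.9 in shNRF2. In H460 their sum was 4.93 to 6.20 FPKM in shGFP, 7.66 to 8.89 in shNRF2, 10.5 to 11.0 in shNR0B1 and 2.65 to 2.73 in shSNW1. What these shifts contribute to the results below was not tested. The libraries come from cell lines, so these sums are levels of marker transcripts. They do not measure a content of immune, fibroblast or endothelial cells. Of the 5 immune markers, 1 reached 1 FPKM in at least 3 of the fitted libraries in H460, and 2 did in H2122. Fewer expressing cells and less RNA per cell cannot be told apart in bulk libraries.

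CYP1B1 was the most abundant of the 6 transcripts per length in all 6 knockdown groups. Its FPKM (fragments per kilobase, on the authors' depth scaling) was 76.7, 75.5 and 72.0 in the H460 controls, and 87.4, 98.9 and 89.6 in the H2122 controls. AHR came second by mean FPKM in each of them, with control values of 21.1, 21.0 and 18.9 FPKM (H460) and 21.7, 22.2 and 21.7 FPKM (H2122). ARNT had control values of 11.6, 11.1 and 10.8 FPKM (H460) and 9.49, 9.29 and 9.06 FPKM (H2122). The repressors lay further apart between the lines than the receptor and its partner. TIPARP had 4.63, 4.66 and 4.04 FPKM in the H460 controls against 11.6, 11.8 and 11.2 in those of H2122. AHRR showed the opposite order, with 47, 29 and 39 reads (0.346, 0.247 and 0.401 FPKM) in the H460 controls and 7, 5 and 7 reads (0.0559, 0.0413 and 0.0546 FPKM) in those of H2122.

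CYP1A1, the classical AHR target, separated the lines within the knockdown experiment. In H2122 shGFP it had 228, 264 and 241 reads (3.95, 4.73 and 4.08 FPKM), and each H460 shGFP library had 0 reads. In the other H460 knockdown libraries it had 0, 2 and 0 reads under shNRF2, 0 in each under shNR0B1, and 3, 0 and 4 under shSNW1. With a floor of 3 reads over the H460 shGFP group, the H2122 shGFP level was at least 242-fold higher in reads scaled to library size. That fold holds for these shGFP groups only, since the H460 DMSO libraries of the compound experiment held 19, 16 and 18 reads of CYP1A1. The gene lengths used in the 2 experiments differ, so these reads are a caution and not a comparison of levels. With H2122 sampled at 24 h and H460 at 72 h, line and time cannot be told apart here. These few reads allow no statement on CYP1A1 between the H460 knockdown groups, and no test was made there. Counting error is all that such a floor covers.

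**Figure D1:**
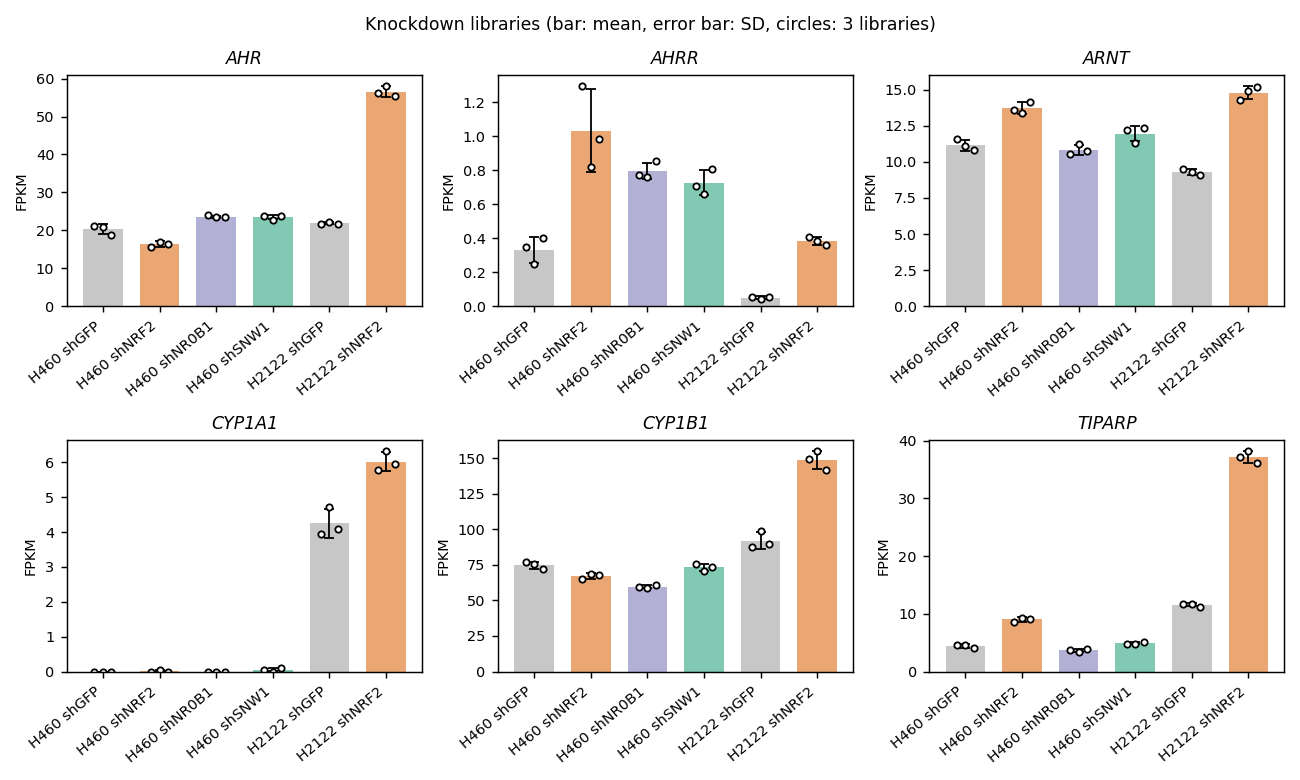
FPKM of the 6 genes in the 6 knockdown groups, 1 panel per gene with its own scale; bars are means, error bars SDs and circles the 3 libraries. H2122 shNRF2 is the highest group for AHR, ARNT, CYP1A1, CYP1B1 and TIPARP, and H460 shNRF2 the highest for AHRR.

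NRF2 knockdown in H2122 raised every one of the 6 transcripts. TIPARP rose most among the genes above the low-level minimum, from 11.6, 11.8 and 11.2 FPKM to 37.2, 38.2 and 36.1, a ratio of means of 3.22. The receptor AHR itself rose from 21.7, 22.2 and 21.7 FPKM to 56.2, 58.2 and 55.4, a ratio of 2.59. For both genes the lowest knockdown library lay far above the highest control library. The log2 fold change was 1.61 ± 0.0326 (SE) for TIPARP (limma on log2(FPKM + 1), adjusted p = 1.32e-10) and 1.33 ± 0.0275 for AHR (limma adjusted p = 1.43e-10). Adjusted p-values are Benjamini-Hochberg values over all genes tested, and a gene was called when they fell under 0.05.

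The partner and the target enzymes rose less. ARNT went from 9.49, 9.29 and 9.06 FPKM to 14.3, 14.9 and 15.2 (ratio 1.59, log2 fold change 0.62 ± 0.0374, limma adjusted p = 1.66e-07). CYP1B1 went from 87.4, 98.9 and 89.6 FPKM to 149, 155 and 142 (ratio 1.62, log2 fold change 0.69 ± 0.0476, limma adjusted p = 4.66e-07). CYP1A1 went from 3.95, 4.73 and 4.08 FPKM to 5.78, 6.33 and 5.96 (ratio 1.42, log2 fold change 0.42 ± 0.0633, limma adjusted p = 1.49e-04). In none of the 3 did knockdown and control libraries overlap. How many of all genes separate in this way was not counted, here or in the comparisons below, so such a separation is a description only. AHRR, the repressor, did not reach the minimum for testing (1 FPKM in 3 libraries) and was tested on recovered reads instead. It went from 7, 5 and 7 reads to 50, 43 and 45, with a ratio of mean FPKM of 7.54 and a log2 fold change of 2.83 ± 0.29 (limma voom adjusted p = 4.62e-10). AHRR reached the read minimum (10 reads in 3 libraries) through shNRF2 alone, so this test lends the rise no support and is not counted. All 5 genes over the minimum were called higher, where 87.3% of the 11710 genes tested were called and 48.8% were called higher. The read-based test called 85.9% of 13344 genes. A called share this near to that of all genes says nothing particular about the 6. The median change of the 5 was 0.69, beside 0.09 over all genes.

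NRF2 knockdown in H460 raised TIPARP, AHRR and ARNT and lowered AHR and CYP1B1. TIPARP rose from 4.63, 4.66 and 4.04 FPKM to 8.65, 9.35 and 9.05, a ratio of 2.03 (log2 fold change 0.88 ± 0.0557, limma adjusted p = 3.76e-09). AHRR rose from 47, 29 and 39 reads to 116, 79 and 96, or from 0.346, 0.247 and 0.401 FPKM to 1.30, 0.820 and 0.982 (ratio 3.12, log2 fold change 1.63 ± 0.189, limma voom adjusted p = 1.8e-10). Both repressors were therefore higher in each knockdown library than in any control library. ARNT rose from 11.6, 11.1 and 10.8 FPKM to 13.6, 13.4 and 14.2 (ratio 1.23, log2 fold change 0.27 ± 0.0437, limma adjusted p = 5.2e-05). The receptor fell: AHR went from 21.1, 21.0 and 18.9 FPKM to 15.5, 17.0 and 16.5 (ratio 0.803, log2 fold change -0.30 ± 0.0459, limma adjusted p = 3.71e-05). CYP1B1 fell from 76.7, 75.5 and 72.0 FPKM to 64.7, 68.7 and 67.8 (ratio 0.898, log2 fold change -0.15 ± 0.0363, limma adjusted p = 0.00153). The groups did not overlap for these 3 genes either, and the share of all genes without overlap was not counted. Of the 4 genes over the minimum, 2 were called higher and 2 lower, where 79.8% of 11938 genes were called, 40.9% higher and 39.0% lower, and 77.9% of 13626 by the read-based test. The median of the 4 was 0.06, beside 0.01 over all genes.

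The response to NRF2 knockdown was also compared between the lines directly, as the difference of the 2 log2 fold changes (H2122 minus H460). It was 1.63 ± 0.0636 for AHR (limma adjusted p = 1.78e-10), whose change was of opposite sign in the 2 lines. CYP1B1, likewise higher in one line and lower in the other, differed by 0.84 ± 0.0674 (limma adjusted p = 1.6e-07). TIPARP rose in both and differed by 0.72 ± 0.0686 (limma adjusted p = 7.85e-07), and ARNT by 0.35 ± 0.055 (limma adjusted p = 9.3e-05). The 2 low genes depended on the scale. AHRR differed by 1.19 ± 0.396 on reads (limma voom adjusted p = 0.0103), but by -0.21 on log2(FPKM + 1) without the minimum (limma adjusted p = 0.103), a scale on which its small FPKM values count little. CYP1A1 differed by 0.40 ± 0.0814 on log2(FPKM + 1) (limma adjusted p = 6.9e-04) and by -0.56 ± 0.705 on reads (limma voom adjusted p = 0.498), with H460 at 0 to 2 reads per library. With a pseudocount of 0.1 FPKM its difference was 0.32 (limma adjusted p = 0.173). CYP1A1 entered this fit through H2122 alone, so its value is the H2122 change set against a floor and is not counted. The other 4 genes over the minimum were all called higher, where 71.6% of 12798 genes were called and 37.4% were called higher (62.7% of 14469 called on reads). Because H2122 was sampled at 24 h and H460 at 72 h, line and time cannot be told apart.

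The same limit holds for the controls, where H2122 shGFP was set against H460 shGFP. TIPARP was higher in H2122 by 1.21 ± 0.0485 (limma adjusted p = 3.14e-11) and CYP1B1 by 0.29 ± 0.0476 (limma adjusted p = 6.37e-05). ARNT was lower by 0.24 ± 0.0389 on the log2 scale (-0.24, limma adjusted p = 6.07e-05), and AHRR by 2.59 ± 0.353 on reads (-2.59, limma voom adjusted p = 1e-07). The difference of AHR was 0.10 ± 0.0449 (limma adjusted p = 0.0474), a call that was lost when any of the 3 H2122 shGFP libraries was left out (limma adjusted p 0.0734 to 0.117) or H460 shGFP replicate 3 (0.05, limma adjusted p = 0.21). CYP1A1 passed the minimum through H2122 alone and is not counted. Of the other 4 genes over the minimum, 3 were called higher and 1 lower, where 85.5% of 12798 genes were called, 44.4% higher and 41.1% lower (85.7% of 14469 called on reads).

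**Figure D2:**
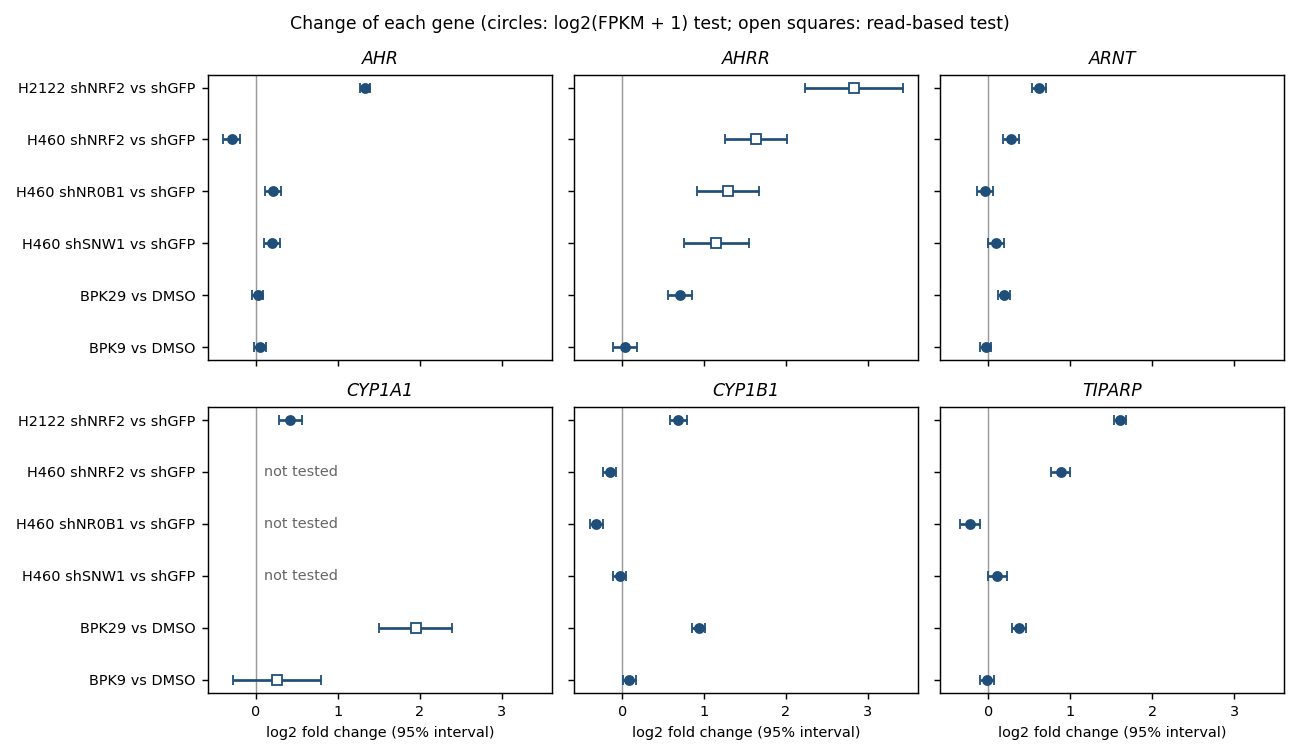
Log2 fold change of each gene with its 95% interval in 4 knockdown and 2 compound comparisons; filled circles come from the log2(FPKM + 1) test and open squares from the read-based test. The interval of AHRR lies above 0 in all of these comparisons but BPK9 against DMSO, and AHR lies at 1.33 in H2122 shNRF2 and at -0.30 in H460 shNRF2.

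H460 cells were also depleted of NR0B1, a nuclear receptor without known ligand that represses transcription, and of SNW1, a coregulator of transcription and splicing. AHRR rose under both hairpins. Its reads were 87, 95 and 111 under shNR0B1 and 81, 77 and 81 under shSNW1, beside 47, 29 and 39 under shGFP, without overlap (ratios of mean FPKM 2.40 and 2.19). The log2 fold changes were 1.29 ± 0.189 (limma voom adjusted p = 7.69e-08) and 1.15 ± 0.194 (limma voom adjusted p = 1.6e-06). AHR rose slightly under both, to 23.9, 23.4 and 23.5 FPKM and to 23.7, 22.8 and 23.7 FPKM, with log2 fold changes of 0.21 ± 0.0459 (limma adjusted p = 0.00112) and 0.20 ± 0.0459 (limma adjusted p = 0.00183). These shifts of the receptor lie above all 3 control libraries but amount to ratios of only 1.16 and 1.15.

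CYP1B1 and TIPARP fell under shNR0B1. CYP1B1 stood at 59.6, 58.9 and 60.7 FPKM (ratio 0.799, log2 fold change -0.32 ± 0.0363, limma adjusted p = 3.66e-06) and TIPARP at 3.68, 3.43 and 3.84 FPKM (ratio 0.822, log2 fold change -0.23 ± 0.0557, limma adjusted p = 0.00261). Each lay under every control library. ARNT, at 10.5, 11.2 and 10.7 FPKM, differed from control by -0.04 (95% interval -0.13 to 0.06, limma adjusted p = 0.444). Under shSNW1, CYP1B1 at 75.6, 70.7 and 73.5 FPKM, ARNT at 12.2, 11.3 and 12.4 FPKM and TIPARP at 4.82, 4.74 and 5.05 FPKM were not called. Their differences were -0.03 (95% interval -0.11 to 0.05), 0.09 (95% interval -0.0030 to 0.19) and 0.11 (95% interval -0.0091 to 0.23). After rescaling to a common read total, ARNT (0.17, limma adjusted p = 0.00606) and TIPARP (0.18, limma adjusted p = 0.0133) were called under shSNW1. Of the 4 genes over the minimum, 1 was called higher and 2 lower after NR0B1 knockdown, where 69.8% of 11938 genes were called, 33.1% higher and 36.8% lower. After SNW1 knockdown 1 was called higher, where 67.2% were called and 30.8% were called higher. On reads, 69.2% and 65.6% of 13626 genes were called.

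The 3 H460 knockdowns share the shGFP libraries, so they were also compared with each other. TIPARP was higher under shNRF2 than under shNR0B1 by 1.11 ± 0.0557 (limma adjusted p = 4.65e-10) and than under shSNW1 by 0.77 ± 0.0557 (limma adjusted p = 1.73e-08), and lower under shNR0B1 than under shSNW1 (-0.34 ± 0.0557, limma adjusted p = 1.21e-04). AHR was lower under shNRF2 than under shNR0B1 (-0.51 ± 0.0459) and shSNW1 (-0.50 ± 0.0459), with limma adjusted p-values of 2.27e-07 and 2.4e-07. Between shNR0B1 and shSNW1 the difference of AHR was 0.01 (95% interval -0.09 to 0.11, limma adjusted p = 0.834). CYP1B1 was lower under shNR0B1 than under shSNW1 (-0.29 ± 0.0363, limma adjusted p = 9.91e-06). It was lower under shNRF2 than under shSNW1 by a smaller step (-0.13 ± 0.0363, limma adjusted p = 0.00622). The 4 genes over the minimum were called in all 4 cases between shNRF2 and shNR0B1 (3 higher, 1 lower, with 74.5% of all genes called, 37.8% higher and 36.7% lower), in all 4 between shNRF2 and shSNW1 (2 higher, 2 lower, with 78.7% called, 39.6% higher and 39.1% lower) and in 3 cases, all lower, between shNR0B1 and shSNW1 (67.8% called, 33.1% lower). The read-based test called 72.9%, 76.8% and 66.4% of 13626 genes in these 3 comparisons.

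Some of these calls were fragile. On a common read total, the difference of CYP1B1 between shNRF2 and shNR0B1 went from 0.17 to 0.05 (limma adjusted p = 0.265) and that of ARNT between shNRF2 and shSNW1 from 0.18 to 0.07 (limma adjusted p = 0.164). AHRR was higher under shNRF2 than under shNR0B1 by 0.34 ± 0.143 on reads (limma voom adjusted p = 0.0306), and without shNRF2 replicate 1, its highest library, by 0.17 (limma voom adjusted p = 0.319). That call was also lost without shNR0B1 replicate 1 or 2 (limma voom adjusted p = 0.0673 and 0.0836). Without shNRF2 replicate 1, the step of AHRR from shSNW1 to shNRF2 went from 0.48 to 0.32 (limma voom adjusted p = 0.0723). ARNT was lower under shNR0B1 than under shSNW1 by 0.13 ± 0.0437 (-0.13, limma adjusted p = 0.0175), a call lost without replicate 1 or 3 of either group (limma adjusted p 0.0526 to 0.0741).

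Ranked by mean FPKM over the 6 knockdown groups, the TIPARP order was H2122 shNRF2, H2122 shGFP, H460 shNRF2, shSNW1, shGFP and shNR0B1. No neighbours overlapped, but the step between shSNW1 and shGFP was not called. For AHR, H2122 shNRF2 stood apart at 56.6 ± 1.45 FPKM, H460 shNR0B1 (23.6 ± 0.285) and shSNW1 (23.4 ± 0.518) overlapped, and H2122 shGFP, H460 shGFP and H460 shNRF2 (16.3 ± 0.762) followed without overlap (SD, n = 3). For CYP1B1, only H460 shGFP (74.7 ± 2.45) and shSNW1 (73.3 ± 2.46) overlapped as neighbours, between H2122 shGFP (91.9 ± 6.12) above and H460 shNRF2 (67.1 ± 2.11) below. For ARNT, shSNW1, shGFP and shNR0B1 of H460 overlapped in turn, from 12.0 ± 0.542 to 10.8 ± 0.358 FPKM, under both shNRF2 groups and above H2122 shGFP. For AHRR the 3 H460 knockdowns overlapped in turn at the top, from 1.03 ± 0.244 to 0.727 ± 0.0746 FPKM, and H2122 shNRF2 (0.382 ± 0.0235) overlapped with H460 shGFP (0.331 ± 0.0779).

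BPK29 raised CYP1A1, CYP1B1, AHRR, TIPARP and ARNT in H460 within 12 h, while AHR itself was not called. Levels in these libraries are given as RPM (reads per 1000000 recovered reads), because the gene lengths behind the deposited compound columns differ from those of the knockdown columns. CYP1B1 stood at 436, 463 and 473 RPM in DMSO, at 925, 931 and 896 in BPK29 and at 487, 506 and 478 in BPK9. CYP1A1 had 19, 16 and 18 reads in DMSO, 62, 82 and 78 in BPK29 and 23, 21 and 20 in BPK9. AHRR stood at 10.2, 8.70 and 9.17 RPM in DMSO, at 16.1, 16.4 and 18.4 in BPK29 and at 9.25, 9.57 and 10.4 in BPK9. For all 3 genes the BPK29 libraries lay above every DMSO and every BPK9 library. The share of all genes with such a separation was not counted. The smaller shifts showed the same separation: TIPARP stood at 39.8, 42.9 and 40.7 RPM in DMSO, 55.8, 57.3 and 55.6 in BPK29 and 41.0, 42.4 and 39.4 in BPK9, and ARNT at 52.8, 52.0 and 53.6, at 64.6, 63.0 and 63.2, and at 52.8, 50.4 and 52.9.

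On the deposited scaling, the ratio of means of BPK29 to DMSO was 3.91 for CYP1A1, 1.92 for CYP1B1, 1.73 for AHRR, 1.31 for TIPARP and 1.15 for ARNT. The log2 fold change was 0.93 ± 0.0354 for CYP1B1 (limma adjusted p = 1.66e-07), 0.71 ± 0.0654 for AHRR (limma adjusted p = 2.18e-05), 0.37 ± 0.0368 for TIPARP (limma adjusted p = 3.32e-05) and 0.19 ± 0.0303 for ARNT (limma adjusted p = 6.06e-04). CYP1A1, under the FPKM minimum here, rose by 1.95 ± 0.22 on reads (limma voom adjusted p = 9e-10). For AHR, at 80.8, 84.9 and 85.7 RPM in DMSO and 86.8, 87.0 and 92.2 in BPK29, the difference was 0.02 (95% interval -0.05 to 0.09, limma adjusted p = 0.667). Its libraries overlapped on the deposited scaling, though not in RPM. Thus 4 of the 5 genes over the minimum were called higher, where 50.4% of 11461 genes were called and 21.1% were called higher. The read-based test called 50.2% of 13151 genes. The median of the 5 was 0.37, beside -0.02 over all genes. The 6 epithelial markers summed to 3132 to 3182 RPM in DMSO and 2729 to 2757 in BPK29, with CDH1 at 0 in BPK29 and BPK9, and the fibroblast and endothelial markers to 86.1 to 96.0 and 60.1 to 61.2 RPM. Their part in the result was not tested.

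BPK9 at the same dose and time gave no call among the 6 genes. The difference from DMSO was 0.05 for AHR (95% interval -0.02 to 0.12), 0.04 for AHRR (-0.11 to 0.18), -0.03 for ARNT (-0.10 to 0.04) and -0.02 for TIPARP (-0.10 to 0.06). CYP1A1 differed by 0.25 on reads (95% interval -0.29 to 0.79, limma voom adjusted p = 0.705), an interval wide enough to hold a moderate change at 16 to 23 reads per library. CYP1B1 differed by 0.09 (95% interval 0.0067 to 0.17, limma adjusted p = 0.295), and on reads by 0.09 (limma voom adjusted p = 0.0524). Its BPK9 libraries lay just above its DMSO libraries. Few genes were called at all: limma called 0.00873% of 11461 genes, 1 gene, while 1725 had an unadjusted p under 0.05, and voom on the recovered reads called 1.97% of 13151 genes.

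The compounds were then compared directly. BPK29 minus BPK9 was 0.85 ± 0.0354 for CYP1B1 (limma adjusted p = 3.64e-07), 0.67 ± 0.0654 for AHRR (limma adjusted p = 4.05e-05), 0.39 ± 0.0368 for TIPARP (limma adjusted p = 3.41e-05) and 0.22 ± 0.0303 for ARNT (limma adjusted p = 3.02e-04). On reads it was 1.70 ± 0.209 for CYP1A1 (limma voom adjusted p = 8.14e-09). AHR differed by -0.03 (95% interval -0.11 to 0.04, limma adjusted p = 0.427). So 4 of 5 were called higher, where 46.9% of 11461 genes were called and 19.7% were called higher. The read-based test called 47.5% of 13151 genes. NR0B1 itself was at 91.4 ± 1.77 RPM in DMSO, 90.7 ± 2.01 in BPK29 and 95.1 ± 0.644 in BPK9 (SD, n = 3). On the deposited scaling its log2 fold change was -0.12 ± 0.0241 for BPK29 against BPK9 (limma adjusted p = 0.0032). Against DMSO it was -0.07 ± 0.0241 (limma adjusted p = 0.0275), but in RPM those libraries overlapped (88.5 to 92.5 in BPK29, 90.3 to 93.5 in DMSO).

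**Figure D3:**
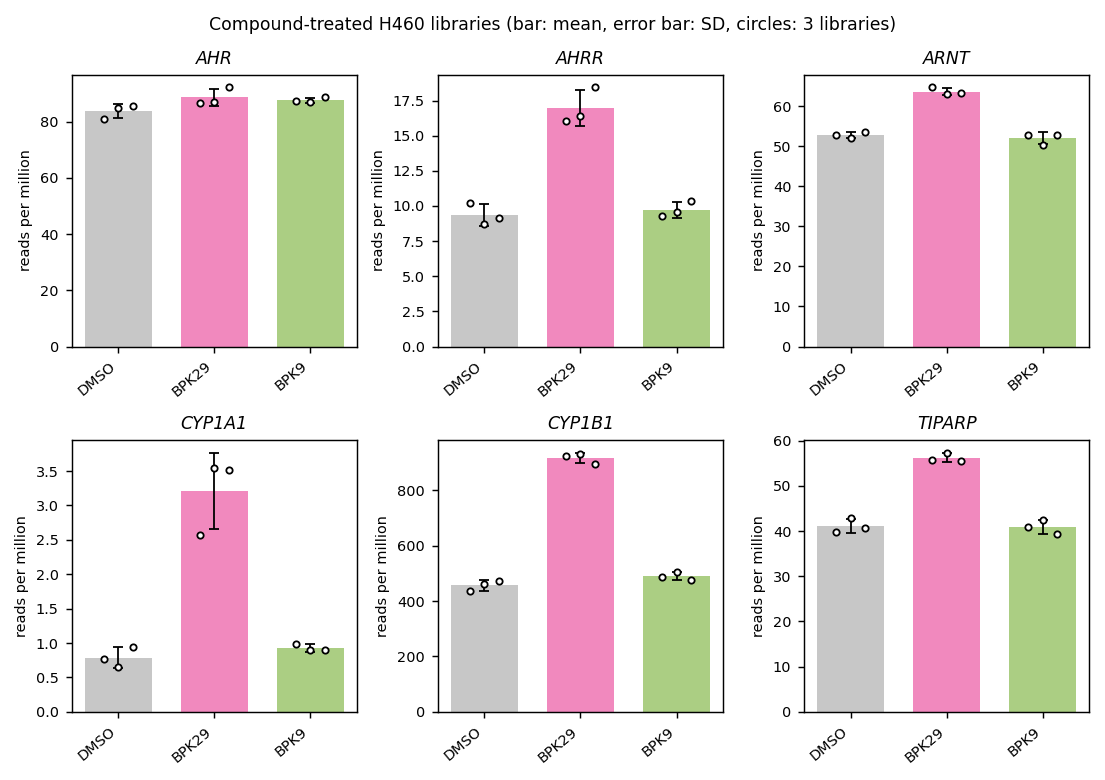
RPM of the 6 genes in H460 cells after DMSO, BPK29 or BPK9, 1 panel per gene with its own scale; bars are means, error bars SDs and circles the 3 libraries. BPK29 stands above both other groups for CYP1B1 (917 against 457 in DMSO and 490 in BPK9), CYP1A1, AHRR, TIPARP and ARNT, and the 3 groups lie close together for AHR.

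Beside the receptor and its targets, most genes of the cytoplasmic complex that holds AHR fell after NRF2 knockdown. Of its 5 listed genes, 3 were called lower in H2122, where 38.5% of all genes were called lower, and 4 in H460, where 39.0% were. In each line 1 of the 5 was called higher, where 48.8% and 40.9% of all genes were. The chaperones HSP90AA1 and HSP90AB1 went from 1346 ± 9.64 to 528 ± 4.95 FPKM and from 994 ± 25.0 to 404 ± 5.94 FPKM in H2122 (SD, n = 3), with log2 fold changes of -1.35 and -1.30. PTGES3, which encodes p23, went from 652 ± 7.02 to 248 ± 2.68 FPKM (-1.39). In H460 these 3 changed by -1.12, -0.68 and -1.17. After NR0B1 knockdown 4 of the 5 were called lower, among them HSP90AA1 (-0.81), and 1 was called higher. Of all genes, 36.8% were called lower there and 33.1% higher. With BPK29, HSP90AB1 fell (-0.32), while the kinase SRC, also listed, rose (0.28). The list's median change was -1.30 in H2122 and -0.77 in H460 after NRF2 knockdown, -0.44 after NR0B1 knockdown and -0.06 with BPK29, beside medians of 0.09, 0.01, -0.02 and -0.02 over all genes.

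Other genes that AHR is known to induce were called lower more often than higher after NRF2 knockdown. Of 15 listed, 11 could be tested in H2122, with 1 called higher and 7 lower, beside 48.8% and 38.5% of all genes. In H460 9 could be tested, with 2 higher and 5 lower, beside 40.9% and 39.0%. The list's medians were -0.88 and -0.29, beside 0.09 and 0.01 over all genes. Whether these changes run through AHR or through another factor was not tested. ABCG2, a drug efflux pump, fell from 12.5 ± 0.972 to 2.30 ± 0.053 FPKM in H2122 (-2.03) and from 21.8 ± 0.776 to 4.96 ± 0.11 FPKM in H460 (-1.93). STC2, a secreted glycoprotein, fell in H2122 (-1.40), as did EREG, a ligand of the epidermal growth factor receptor (-1.05). ALDH3A1, an aldehyde dehydrogenase, fell in H460 after NRF2 (-1.13) and NR0B1 knockdown (-0.98) and rose after SNW1 knockdown (0.64). The exceptions that rose were GSTA1 in H2122 (1.28), which shares sequence with its paralog GSTA2 so that its reads are uncertain, and in H460 the scaffold protein NEDD9 (1.10) as the larger of 2. With BPK29, 3 of 8 tested were called higher and 5 lower, beside 21.1% and 29.3% of all genes. STC2 (from 113 ± 4.65 to 182 ± 4.18 RPM, 0.61) and ALDH3A1 (from 1326 ± 7.10 to 1992 ± 33.0 RPM, 0.52) rose, and VAV3 (-0.46) and NEDD9 (-0.40) fell.

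Of 10 listed coregulators that AHR can recruit, 7 were called higher and 2 lower in H2122 shNRF2 (48.8% and 38.5% of all genes), and 6 and 2 in H460 shNRF2 (40.9% and 39.0%). The counts were 8 and 2 in shNR0B1 (33.1% and 36.8% of all genes), and 6 and 2 in shSNW1 (30.8% and 36.4%). NRIP1, a corepressor, went from 8.05 ± 0.212 to 16.6 ± 0.894 FPKM in H2122 (0.96) and from 6.34 ± 0.681 to 12.8 ± 0.376 FPKM in H460 (0.92) under shNRF2, and rose under shNR0B1 (0.57) but fell under shSNW1 (-0.40). Of the coactivators, NCOA3 (0.81) and NCOA2 (0.75) rose in H2122 shNRF2, and NCOA1 (0.73) and CREBBP (0.73) in H460 shNRF2. The list's medians were 0.66, 0.32, 0.35 and 0.27 in these 4 knockdowns, beside 0.09, 0.01, -0.02 and -0.03 over all genes. With BPK29, NCOA3 (0.27) and NCOA1 (0.23) rose and NRIP1 fell (-0.34). Here 2 of 10 were called in each direction (1 lower on a common read total), beside 21.1% of all genes higher and 29.3% lower. Counts this near to those shares say nothing particular about the list.

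The remaining lists cover removal of AHR and formation of its tryptophan-derived ligands. Of 6 genes of the ubiquitin ligases that degrade AHR, 5 were called lower with BPK29 against DMSO (4 after rescaling to a common read total), where 29.3% of all genes were called lower. Against BPK9 5 were called lower (2 on a common total), where 27.2% of all genes were. The RING subunit RBX1 (-0.29) and the cullin CUL4B (-0.25) were among those lower than in DMSO. DDB1, the adaptor of that ligase, fell from 78.9 ± 1.41 to 38.4 ± 0.823 FPKM in H2122 (-1.02) and from 64.7 ± 1.90 to 34.1 ± 0.81 FPKM in H460 (-0.91) under shNRF2. CUL4B rose in H2122 shNRF2 (0.71) and fell in H460 shNRF2 (-0.20). Of these 6 genes, 1 was called higher and 3 lower in H2122 shNRF2 (48.8% and 38.5% of all genes), and 0 and 3 in H460 shNRF2 (40.9% and 39.0%). Of 11 genes of tryptophan and kynurenine metabolism, 6 could be tested in each fit. In H2122 shNRF2 0 were called higher and 4 lower (48.8% and 38.5% of all genes), and in H460 shNRF2 2 and 4 (40.9% and 39.0%). The counts were 0 and 4 in shNR0B1 (33.1% and 36.8%), 1 and 5 in shSNW1 (30.8% and 36.4%) and 2 and 1 with BPK29 (21.1% and 29.3%). AADAT, a kynurenine aminotransferase, fell in H2122 shNRF2 (-1.35), H460 shNRF2 (-0.74), shNR0B1 (-0.82) and shSNW1 (-0.38). TDO2, which opens the tryptophan ring, fell in H2122 shNRF2 (-0.85) and rose in shSNW1 (0.56), and with BPK29 it rose from 3.66 ± 0.233 to 7.38 ± 0.736 RPM (0.51). KYNU, kynureninase, rose in H460 shNRF2 (0.51) and fell in shNR0B1 (-0.73). Among the other PAS-domain factors, of 13 listed, 8 tested in H2122 gave 4 higher and 2 lower (48.8% and 38.5% of all genes), led by ARNT2, a second partner of AHR (from 2.84 ± 0.123 to 6.13 ± 0.215 FPKM, 0.89), and 7 tested in H460 shNRF2 gave 5 higher and 1 lower (40.9% and 39.0% of all genes).

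**Figure D4:**
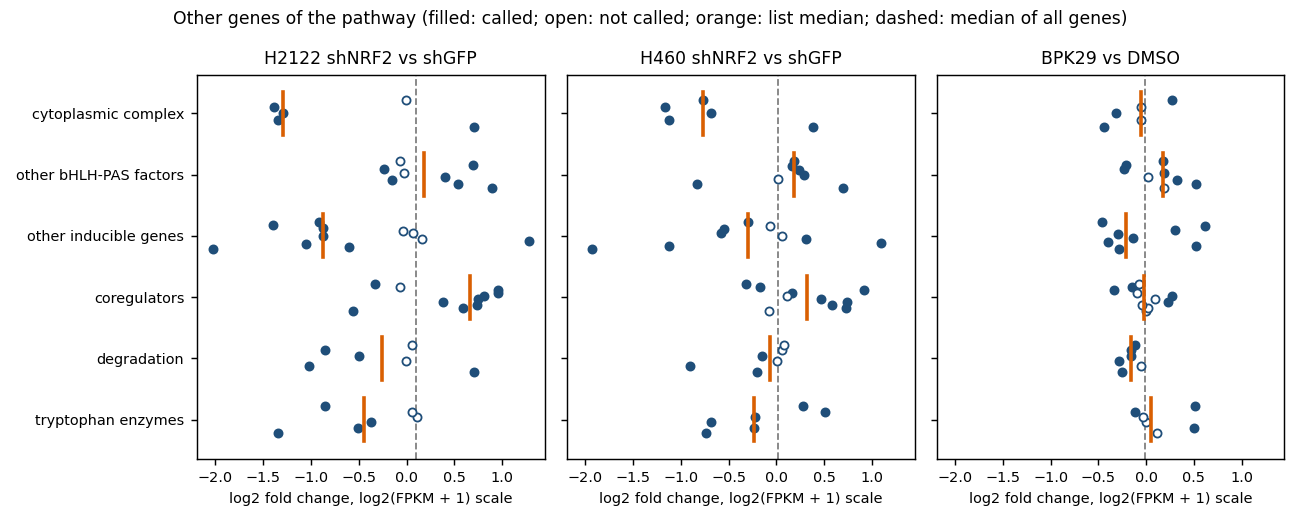
Log2 fold change, on the log2(FPKM + 1) scale, of the tested genes of 6 lists around the pathway in 3 comparisons; filled points were called, open points were not, orange bars are list medians and the dashed line is the median of all genes. The cytoplasmic complex lies mostly to the left in both NRF2 knockdowns, with medians of -1.30 in H2122 and -0.77 in H460.

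Genes whose pattern over the 12 H460 knockdown libraries came nearest to each of the 4 tested members were listed among 8201 genes with a mean of at least 5 FPKM. The measure was Pearson's r of log2(FPKM + 1), and since the 12 libraries form 4 groups it mainly reflects 4 group levels. TIPARP was most like GSK3B (r = 0.994), ZNF664 (0.991) and HIPK2 (0.989), and over the 6 H2122 libraries, in 2 groups, these gave 0.995, 0.999 and 0.887. ARNT was most like ANKRD10 (0.960), S100P (0.958) and POFUT2 (0.957), with 0.985, 0.981 and 0.978 in H2122. AHR was most like PPP3R1 (0.988), IPO7 (0.985) and DNAJC6 (0.984), but in H2122 these ran the opposite way (-0.924, -0.999 and -0.827). CYP1B1 was most like CCDC6 (0.988), EIF2A (0.972) and LARP4 (0.971), also with the sign turned in H2122 (-0.937, -0.959 and -0.952).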

How the data were processed

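Polyadenylated RNA of 27 libraries was analysed; the NR0B1 ChIP library, its input and the peak list were not used here. The authors deposited 1 table of FPKM values (fragments per kilobase, depth-scaled) per gene symbol. The tools named in the submitters' processing notes are HOMER, Bowtie2, DESeq2, featureCounts and STAR, with hg19 as the build. Which annotation and strand setting went with them is not stated, so reads of overlapping genes cannot be told apart (TIPARP-AS1 reached at most 0.34 FPKM; AHRR also overlaps the readthrough gene PDCD6-AHRR). No replicate pooling is stated.

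Low FPKM values are whole multiples of 1 read, which returned whole reads for 100% of 15189 genes in the knockdown columns and 100% of 15171 in the compound columns (tolerance 0.02 reads). The deposited scaling followed median-ratio factors over all 18 knockdown libraries (to within 2.6e-12%), and to within 1.04% in the compound columns. Gene lengths behind the compound columns were over 2 fold off those of the knockdown columns for 54.0% of 15096 genes. Levels there are therefore given as RPM (reads per 1000000 recovered reads). No level is compared across the 2 column sets, beyond the CYP1A1 reads in DMSO named above as a caution. Of the compound rows, 28 hold no value.

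The main test was limma 3.58.1 (R 4.3.3, trended prior variance) on log2(FPKM + 1). Genes entered when 3 or more of the fitted libraries reached 1 FPKM; this scale understates changes of low genes. Fits held 12 H460 knockdown, 6 H2122 or 9 compound libraries, or the 12 shGFP and shNRF2 libraries of both lines. Members under that minimum were tested with limma voom on recovered reads (at least 10 reads in 3 libraries), a test chosen after seeing the data. Both tests and the read recovery were checked on simulated data. Alternatives were another pseudocount, no minimum, 2 rescalings, voom, a replicate block and leaving out each library. Named genes are the 6 members, the targeted genes, up to 4 called members of each pathway list with the largest change and no overlap of groups, and the 3 genes most like each member; a few genes of the lists are not reported here. The members and lists were chosen with earlier results of these data known. Promoter sequences are from RefSeq.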

Additional observations from a re-analysis of the deposited data

Results flagged for a closer look

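The response to NRF2 knockdown differed between H2122 and H460 for 5 genes by the test of that difference (H2122 minus H460, log2). The difference was 1.63 for AHR, 0.84 for CYP1B1, 0.72 for TIPARP and 0.35 for ARNT with limma on log2(FPKM + 1), and 1.19 for AHRR with limma voom on recovered reads. For CYP1A1 the value on log2(FPKM + 1) was 0.40, but with 0 to 2 reads per H460 library the test could not show a differing response, and on reads it was -0.56 (limma voom adjusted p = 0.498). The difference of AHRR was -0.21 on log2(FPKM + 1) without a minimum (limma adjusted p = 0.103). Of all 12798 genes tested, 71.6% differed too, and the lines were sampled at 24 h and 72 h, so line and time cannot be told apart. For AHR and CYP1B1 every H2122 knockdown library lay above its controls and every H460 knockdown library below them.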

How the results depend on the processing

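Of 855 values of the 6 genes under alternative settings, behind 66 tests, 820 kept their direction and call, 18 lost the call, 3 gained one and 14 changed sign. Among those that changed sign, AHR with BPK29 against BPK9 was 0.0157 on a common read total, ARNT after NR0B1 knockdown 0.0351 and CYP1B1 after SNW1 knockdown 0.0518; AHR between shNR0B1 and shSNW1 was -0.0098 with median-ratio scaling. None of these was called in the main test. The AHRR difference between the lines was -0.21 with no minimum, and that of CYP1A1 -0.57 and -0.56 with voom (main and lower minimum), where the H460 libraries held 0 to 2 reads. Leaving out 1 library turned AHR with BPK29 against DMSO to between -0.0101 and 0.0347, AHRR with BPK9 against DMSO to between -0.0067 and 0.0918, TIPARP there to between -0.0439 and 0.0120 and AHR between shNR0B1 and shSNW1 to between -0.0061 and 0.0214, none of them called. A common read total moved the genes called higher with BPK29 from 2418 to 3645 (lower, from 3359 to 2313), with BPK29 against BPK9 from 2258 to 3295 (lower, 3121 to 2290), after SNW1 knockdown from 3671 to 4591 (lower, 4349 to 3528) and between shNRF2 and shNR0B1 from 4511 to 3511 (lower, 4378 to 5461). Median-ratio scaling within H2122 took its factors from the 6 H2122 libraries, where the deposited factors rest on all 18 knockdown libraries. It shifted the median of all genes by -0.14. A common total shifted those of shNRF2 against shNR0B1 and against shSNW1 by -0.10. With BPK9 against DMSO, 6 genes were called higher and 3 lower on a common total, 1 higher with no minimum, and with voom 122 higher and 134 lower (123 and 136 with the read minimum); leaving out 1 library gave 0 to 1 higher. Members called higher went from 1 to 2 after NR0B1 knockdown with no minimum and with the read minimum, since AHRR then enters, and likewise from 1 to 2 after SNW1 knockdown (3 on a common total, 1 to 2 leaving out 1 library); those higher under shNRF2 than shSNW1 went from 2 to 1 on a common total, and those lower in H2122 than H460 controls from 1 to 2 with no minimum or the read minimum. The cause of the shifts with scaling was not tested. Replicate numbers did not pair the H460 knockdown libraries in a regular way (correlation of same-numbered deviations from -0.30 to 0.27). In H2122 each shNRF2 library was nearest to its same-numbered control, with weak correlations of 0.07 to 0.21. The same held for BPK9 against DMSO (0.04 to 0.20) and BPK29 against BPK9 (0.02 to 0.10), but not for replicate 3 of BPK29 against DMSO (-0.02). With a replicate block no call of a member changed (5751 genes higher and 4548 lower in H2122). AHRR and CYP1A1 are limited by depth, with 5 to 7 reads of AHRR per H2122 control library and at most 4 of CYP1A1 per H460 knockdown library.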
